A study of Homo sapiens with 12 samples.

Results

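The 10 genes POLA1, POLA2, PRIM1, PRIM2, POLD1, POLD3, POLE, POLE2, PCNA and DNA2 encode subunits of the replicative DNA polymerases, both subunits of primase, the sliding clamp and a nuclease-helicase of the replication fork. They were found by gene symbol in the annotation of the array, and all 10 were measured, each by 1 probe set that names no other gene, among 18404 genes in all. RNA came from A673, a cell line of Ewing sarcoma driven by EWS-FLI1, a fusion protein that joins EWSR1 to FLI1, a transcription factor of the ETS family, and was hybridized to Affymetrix Gene ST arrays, 2 in each of 6 groups. Cells infected with virus carrying a FLI1 shRNA for 48 h were set against cells given a shRNA to lacZ, a bacterial gene that human cells lack, for 48 h. Cells treated for 24 h with 5 nM or 50 nM actinomycin D, a drug that binds DNA and blocks transcription, were set against cells in DMSO for 24 h. Untreated cells at time 0 were compared with the DMSO and the lacZ shRNA cells. Infected cells were selected with puromycin, for 48 h after 24 h with virus by the protocol, whereas the drug-treated, DMSO and untreated cells had no virus. All groups are a single line. By the study's methods the DMSO and 5 nM treatments were done in duplicate. Whether the other pairs of arrays came from separate cultures is not given. In the main fit all 6 groups shared a single estimate of spread. The p-values of every comparison, also of 5 nM against DMSO, therefore measure a spread between arrays that may be partly technical.

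DNA polymerase alpha and primase form a complex of 4 subunits that lays down a short RNA-DNA primer at each start of synthesis. DNA polymerase epsilon then extends the leading strand and polymerase delta the lagging strand, both held to the template by PCNA, a ring that slides along DNA. DNA2 trims long flaps between Okazaki fragments, the short pieces in which the lagging strand is made, and resects broken ends. The genes of this machinery are typically transcribed as cells enter S phase, under E2F transcription factors, and are abundant in dividing tumour lines.

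Values are log2 signals normalized by the authors with RMA, which places all arrays on a common scale, so that a difference of 1 is a factor of 2. A gene rose or fell where the adjusted p of limma over all genes was under 0.05; errors of changes are standard errors. FLI1 read 7.30 and 7.08 with FLI1 shRNA, against 8.63 and 8.45 with lacZ shRNA, a change of -1.35 ± 0.09 (adjusted p = 5.4e-06). The parts of the EWS-FLI1 fusion and of unfused FLI1 in this signal were not analysed here. In the drug series FLI1 read 8.59 and 8.61 in DMSO, 8.50 and 8.55 at 5 nM and 7.71 and 7.60 at 50 nM, where it fell by 0.95 ± 0.09 (adjusted p = 1.7e-05). Arrays of a group correlated at 0.994 to 0.996 over all rows, and array medians lay between 6.67 and 6.83. Of the markers of the Ewing line, 5 of 5 measured lay above the median level of all genes (7.45), as did KRT8, KRT18 and KRT14 among 7 epithelial markers, whereas 5 of 5 blood and 5 of 5 endothelial markers lay below it.

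After FLI1 shRNA, 9 of the 10 genes fell and 0 rose; across all genes tested, 9.28% fell and 14.6% rose. At 5 nM actinomycin D 9 fell, where 23.0% of all genes did, and 1 rose, PCNA, where 30.3% of all genes did. At 50 nM 7 fell and 0 rose, where 23.3% and 25.8% of all genes did. The median change of the 10 genes was -0.76 after FLI1 shRNA, -0.96 at 5 nM and -0.52 at 50 nM, while that of all genes was -0.0052, 0.12 and 0.10. In RNA from whole cultures, fewer cells of a type, such as cells in S phase, and less RNA per cell cannot be told apart. Both doses were compared with the same DMSO arrays, so that their results are not independent of each other.

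A fall of more than 2-fold with an adjusted p under 0.01 was met after FLI1 shRNA by 3 genes, POLD3, PCNA and DNA2, where 0.598% of all genes met it. The study placed these 3 genes in its own list of EWS-FLI1-regulated genes, which it drew from the same shRNA arrays, so that their size there is not independent evidence. At 5 nM, 5 genes met it, POLA1, POLA2, PRIM1, PRIM2 and DNA2, where 7.86% of all genes did. At 50 nM, 2 genes met it, POLD3 and POLE2, where 5.38% of all genes did. The genes that fell most thus differed by treatment, and each group of subunits is described in turn.

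**Figure D1:**
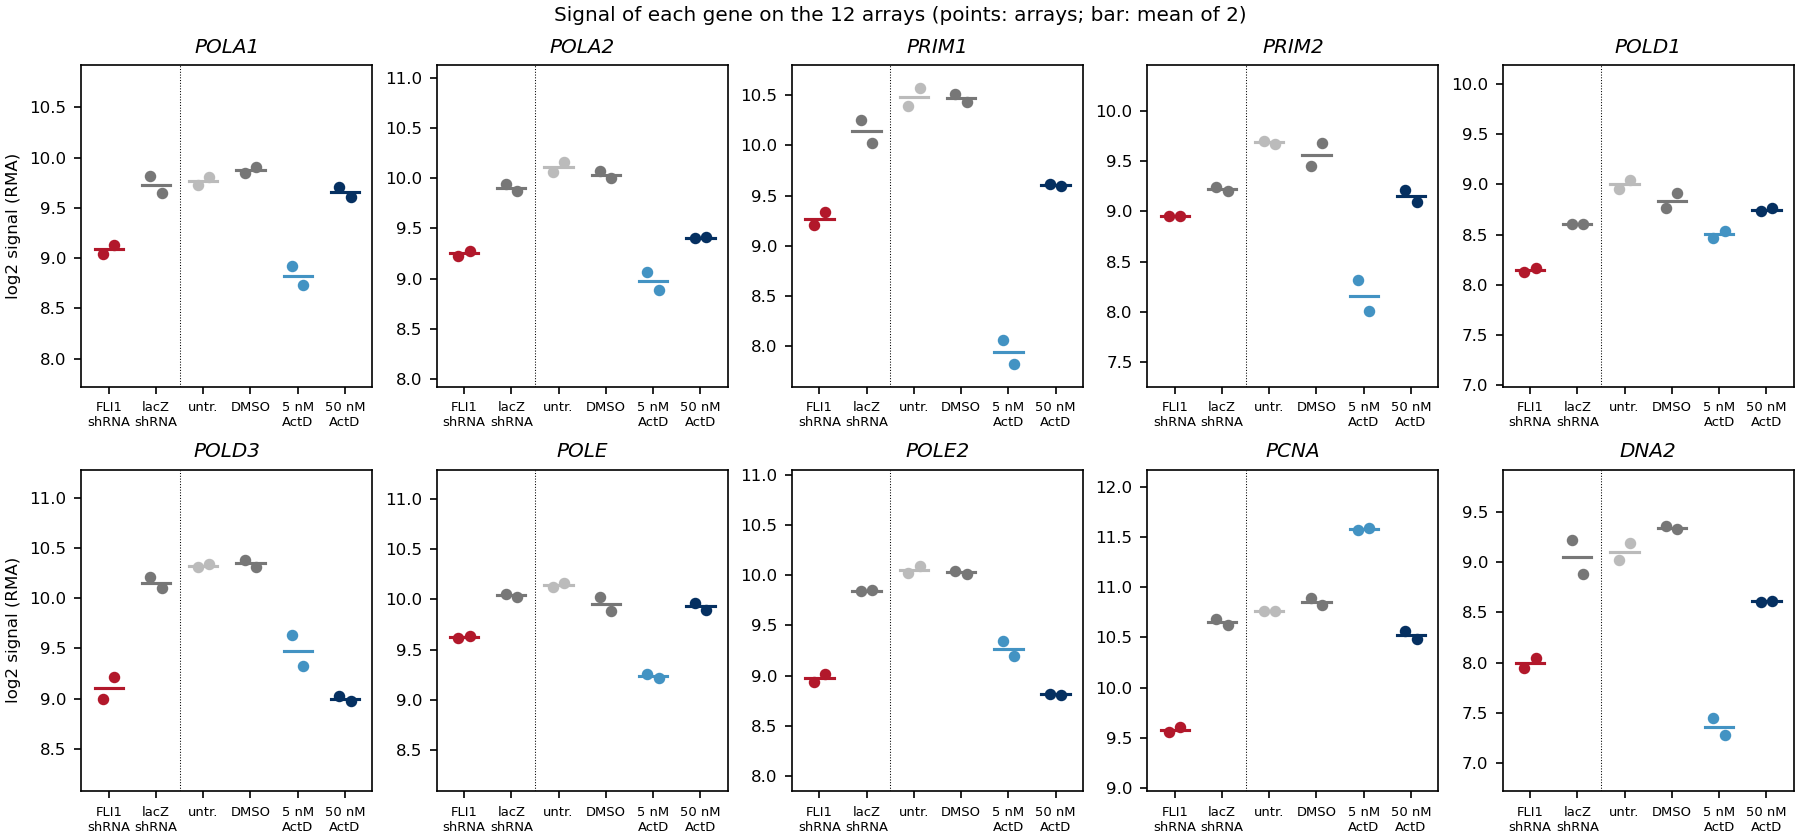
Log2 RMA signal of each of the 10 genes (vertical axis, every panel spanning the same number of log2 units) on the 12 arrays, by group: FLI1 shRNA and lacZ shRNA left of the dotted line, then untreated, DMSO, 5 nM and 50 nM actinomycin D. Points are arrays and bars the mean of 2; PCNA is highest at 5 nM, where PRIM1, PRIM2 and DNA2 are lowest, and POLD3 and POLE2 are lower at 50 nM than at 5 nM.

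In the polymerase alpha-primase complex, the low dose lowered all 4 subunits, most of all PRIM1, the catalytic subunit of primase, which makes the RNA part of the primer. PRIM1 read 9.20 and 9.33 with FLI1 shRNA, against 10.26 and 10.02 with lacZ shRNA. In the drug series it read 10.39 and 10.57 in untreated cells, 10.51 and 10.43 in DMSO, 8.06 and 7.82 at 5 nM and 9.62 and 9.59 at 50 nM. The arrays at 5 nM thus lay below all others, and those at 50 nM lay between them and DMSO. PRIM1 fell by 2.53 ± 0.11 at 5 nM, to 17.3% of its signal in DMSO (adjusted p = 2.0e-08), the largest change among the 10 genes in these 3 comparisons. It fell by 0.87 ± 0.11 after FLI1 shRNA (adjusted p = 2.2e-04) and by 0.86 ± 0.11 at 50 nM (adjusted p = 8.9e-05).

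PRIM2 encodes the large, iron-sulfur subunit of primase, which holds the primer's start. It read 8.95 and 8.95 with FLI1 shRNA, against 9.24 and 9.20 with lacZ shRNA. Untreated cells had 9.70 and 9.67, DMSO 9.45 and 9.68, 5 nM 8.32 and 8.00, and 50 nM 9.21 and 9.10. At 5 nM both arrays lay below all others, while the shRNA groups lay close together without overlap. PRIM2 fell by 1.40 ± 0.11 at 5 nM, to 37.8% of DMSO (adjusted p = 1.2e-06). Its change after FLI1 shRNA, -0.27 ± 0.11, did not pass (adjusted p = 0.10, 95% interval -0.51 to -0.03), although it did in a fit of the 4 shRNA arrays alone (adjusted p = 0.041), with arrays quantile-normalized again (0.036), with a trended, robust variance (0.049) and without either 5 nM array (0.042). At 50 nM it fell by 0.41 ± 0.11 (adjusted p = 0.0099), a call lost without DMSO replicate 2 (-0.30, adjusted p = 0.085), without 50 nM replicate 2 (-0.35, adjusted p = 0.063) and after quantile normalization (-0.20, adjusted p = 0.14). RefSeq lists a PRIM2 pseudogene, and sharing of probes with it was not analysed here.

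POLA1, the catalytic subunit of polymerase alpha, read 9.05 and 9.13 with FLI1 shRNA, against 9.81 and 9.65 with lacZ shRNA. Its signal was 9.73 and 9.81 in untreated cells, 9.84 and 9.91 in DMSO, 8.92 and 8.73 at 5 nM and 9.71 and 9.61 at 50 nM. The gene was thus lowest at 5 nM, while at 50 nM it overlapped the lacZ shRNA arrays and lay just below DMSO. POLA1 fell by 0.64 ± 0.09 after FLI1 shRNA (64.1% of lacZ, adjusted p = 4.6e-04) and by 1.05 ± 0.09 at 5 nM (48.3% of DMSO, adjusted p = 2.7e-06). Its change at 50 nM was -0.22 ± 0.09 and did not pass (adjusted p = 0.068, interval -0.41 to -0.02), although it did with dim genes left out (adjusted p = 0.040), with a trended, robust variance (0.035) and without either 5 nM array (0.045). It was -0.47 with arrays centred on ribosomal protein genes (adjusted p = 7.1e-04) and -0.075 after quantile normalization (adjusted p = 0.41).

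POLA2, the regulatory B subunit that tethers polymerase alpha, read 9.23 and 9.28 with FLI1 shRNA, against 9.94 and 9.87 with lacZ shRNA. It read 10.06 and 10.16 in untreated cells, 10.07 and 10.00 in DMSO, 9.07 and 8.89 at 5 nM and 9.40 and 9.41 at 50 nM. Both doses and FLI1 shRNA therefore lay below every control array, with 5 nM lowest. POLA2 fell by 0.65 ± 0.08 after FLI1 shRNA (adjusted p = 1.9e-04), by 1.06 ± 0.08 at 5 nM (adjusted p = 1.0e-06) and by 0.63 ± 0.08 at 50 nM (adjusted p = 9.6e-05).

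Polymerase delta was measured by its catalytic subunit, POLD1, and by POLD3, an accessory subunit that contacts PCNA. POLD3 read 8.99 and 9.22 with FLI1 shRNA, against 10.21 and 10.10 with lacZ shRNA. It read 10.31 and 10.33 in untreated cells, 10.38 and 10.31 in DMSO, 9.63 and 9.32 at 5 nM and 9.02 and 8.97 at 50 nM. Here 50 nM, not 5 nM, was the lowest group, and its arrays overlapped those of FLI1 shRNA. POLD3 fell by 1.05 ± 0.11 after FLI1 shRNA (48.4% of lacZ, adjusted p = 6.6e-05), by 0.87 ± 0.11 at 5 nM (54.6% of DMSO, adjusted p = 4.8e-05) and by 1.35 ± 0.11 at 50 nM (39.3% of DMSO, adjusted p = 3.2e-06).

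POLD1 moved less. It read 8.13 and 8.17 with FLI1 shRNA, against 8.61 and 8.61 with lacZ shRNA, and FLI1 shRNA was its lowest group. The untreated arrays read 8.96 and 9.04, DMSO 8.77 and 8.91, 5 nM 8.47 and 8.54, and 50 nM 8.73 and 8.76. POLD1 fell by 0.46 ± 0.07 after FLI1 shRNA (72.7% of lacZ, adjusted p = 0.0011) and by 0.34 ± 0.07 at 5 nM (79.3% of DMSO, adjusted p = 0.0028), of which the second was lost after quantile normalization (-0.19, adjusted p = 0.066). At 50 nM it differed from DMSO by -0.09 ± 0.07 (adjusted p = 0.33, interval -0.25 to 0.07); the difference was 0.16 after quantile normalization and -0.34, with an adjusted p of 0.0056, with arrays centred on ribosomal protein genes.

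Of polymerase epsilon, POLE is the catalytic subunit and POLE2 the B subunit, which joins the polymerase to the replicative helicase. POLE2 read 8.94 and 9.01 with FLI1 shRNA, against 9.84 and 9.85 with lacZ shRNA. It read 10.02 and 10.09 in untreated cells, 10.04 and 10.01 in DMSO, 9.34 and 9.19 at 5 nM and 8.82 and 8.81 at 50 nM. As with POLD3, the 50 nM arrays lay below those at 5 nM. POLE2 fell by 0.87 ± 0.07 after FLI1 shRNA (54.7% of lacZ, adjusted p = 1.7e-05), by 0.76 ± 0.07 at 5 nM (59.1% of DMSO, adjusted p = 6.9e-06) and by 1.21 ± 0.07 at 50 nM (43.2% of DMSO, adjusted p = 4.7e-07).

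POLE read 9.61 and 9.64 with FLI1 shRNA, against 10.06 and 10.03 with lacZ shRNA. It read 10.12 and 10.16 in untreated cells, 10.02 and 9.88 in DMSO, 9.26 and 9.22 at 5 nM and 9.97 and 9.90 at 50 nM. The 50 nM arrays lay between the 2 DMSO arrays, whereas those at 5 nM lay below all others. POLE fell by 0.42 ± 0.07 after FLI1 shRNA (74.9% of lacZ, adjusted p = 0.0017) and by 0.71 ± 0.07 at 5 nM (61.0% of DMSO, adjusted p = 9.7e-06). At 50 nM its difference from DMSO was -0.02 ± 0.07 (adjusted p = 0.84, interval -0.18 to 0.14); it was -0.27 with arrays centred on ribosomal protein genes (adjusted p = 0.0062) and 0.095 after quantile normalization (adjusted p = 0.25). The catalytic and B subunits of this polymerase thus had different dose patterns.

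PCNA was the gene whose direction differed between treatments. It read 9.55 and 9.61 with FLI1 shRNA, against 10.68 and 10.62 with lacZ shRNA. It read 10.76 and 10.76 in untreated cells, 10.89 and 10.82 in DMSO, 11.57 and 11.58 at 5 nM and 10.56 and 10.48 at 50 nM. The 5 nM arrays lay above all others and the FLI1 shRNA arrays below all others. PCNA fell by 1.07 ± 0.07 after FLI1 shRNA (47.6% of lacZ, adjusted p = 3.0e-06) and by 0.33 ± 0.07 at 50 nM (79.6% of DMSO, adjusted p = 0.0024). At 5 nM it rose by 0.72 ± 0.07, to 165% of DMSO (adjusted p = 5.3e-06), and it also rose, by 0.37, with arrays centred on ribosomal protein genes (adjusted p = 6.7e-04). RefSeq lists PCNA pseudogenes and an antisense RNA, and sharing of probes with them was not analysed here.

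DNA2 read 7.95 and 8.04 with FLI1 shRNA, against 9.22 and 8.88 with lacZ shRNA. It read 9.02 and 9.19 in untreated cells, 9.36 and 9.32 in DMSO, 7.45 and 7.28 at 5 nM and 8.61 and 8.61 at 50 nM. The pattern was that of PRIM1, with 5 nM below all other arrays and 50 nM between 5 nM and DMSO. DNA2 fell by 1.06 ± 0.11 after FLI1 shRNA (48.0% of lacZ, adjusted p = 7.6e-05), fell by 1.98 ± 0.11 at 5 nM (25.4% of DMSO, adjusted p = 1.2e-07) and by 0.73 ± 0.11 at 50 nM (60.2% of DMSO, adjusted p = 3.5e-04).

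**Figure D2:**
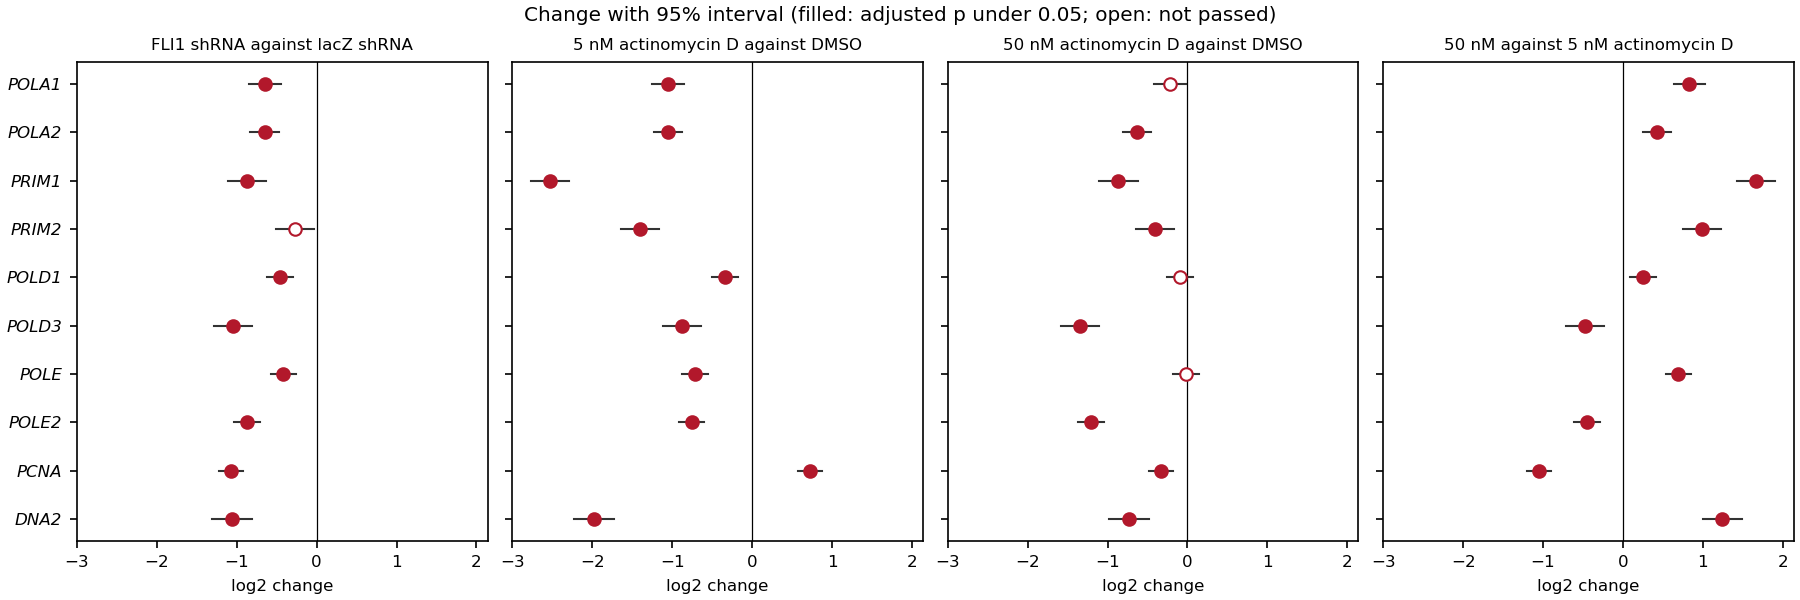
Log2 change (horizontal axis) of the 10 genes (rows) in 4 comparisons, with 95% intervals; filled points passed an adjusted p of 0.05 and open points did not. All points but PCNA lie left of 0 at 5 nM, and the right panel, 50 nM against 5 nM, has 7 genes right of 0 and 3 left of it.

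The direct comparison of 50 nM with 5 nM, which uses no DMSO array, divided the 10 genes. At 50 nM 7 of the 10 genes were higher than at 5 nM, POLA1, POLA2, PRIM1, PRIM2, POLD1, POLE and DNA2, where 21.6% of all genes were. The other 3, POLD3, POLE2 and PCNA, were lower, where 23.1% of all genes were, so that this count lies near the share of all genes. The largest rise was that of PRIM1, 1.66 ± 0.11 (3.17-fold, adjusted p = 3.5e-07), followed by DNA2, 1.25 ± 0.11 (2.37-fold, adjusted p = 3.7e-06), and these 2 passed the 2-fold rule upwards, as did 4.33% of all genes. PCNA was the 1 gene to pass it downwards, with -1.05 ± 0.07 (adjusted p = 3.0e-07), as did 6.65% of all genes. POLD3 was lower by 0.48 ± 0.11 (adjusted p = 0.0037) and POLE2 by 0.45 ± 0.07 (adjusted p = 3.5e-04). Of the 4 subunits of delta and epsilon outside the 10 genes, POLE3 (-0.46 ± 0.08, adjusted p = 5.2e-04) and POLE4 (-0.36 ± 0.08, adjusted p = 0.0039) were also lower at 50 nM, POLD4 was higher (0.39 ± 0.07, adjusted p = 7.9e-04) and POLD2 did not pass (-0.15 ± 0.07, adjusted p = 0.13). The catalytic subunits were higher at 50 nM than at 5 nM: POLA1 by 0.83 ± 0.09, POLE by 0.69 ± 0.07 and POLD1 by 0.25 ± 0.07. The call for POLD1 (adjusted p = 0.018) was lost in a fit of the 4 arrays alone (0.089), without 5 nM replicate 1 (0.081) and without 50 nM replicate 1 (0.051) or 2 (0.081).

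The effect of FLI1 shRNA was then set against that of 5 nM actinomycin D in a test of their difference, the change after shRNA minus the change at 5 nM. This difference passed for 7 of the 10 genes. It was positive, that is, the fall at 5 nM was the deeper one, for 6 genes, where 22.8% of all genes had a positive difference, and negative for PCNA, where 23.7% of all genes did. PRIM1 differed by 1.66 ± 0.15 (adjusted p = 8.5e-06), PRIM2 by 1.13 ± 0.15 (adjusted p = 1.3e-04) and DNA2 by 0.92 ± 0.16 (adjusted p = 7.0e-04). PCNA differed by -1.80 ± 0.10 (adjusted p = 2.2e-07), since it fell after FLI1 shRNA and rose at 5 nM. These 4 calls held under every normalization, fit and left-out array tried at an adjusted p of 0.05.

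Smaller differences, POLA1 0.41 ± 0.13 (adjusted p = 0.023), POLA2 0.40 ± 0.11 (0.013) and POLE 0.30 ± 0.10 (0.034), depended on single arrays. POLA1 was lost without DMSO replicate 2 (adjusted p = 0.068), 5 nM replicate 2 (0.074), FLI1 shRNA replicate 2 (0.082) or lacZ shRNA replicate 2 (0.090). POLA2 was lost without FLI1 shRNA replicate 2 (adjusted p = 0.0503). POLE was lost without DMSO replicate 1 (0.12), 5 nM replicate 2 (0.070) or any of the 4 shRNA arrays (0.057 to 0.097), in a fit of the compared groups alone (0.060) and with all rows tested (0.051). For POLD1 (-0.12, interval -0.35 to 0.11), POLD3 (-0.17, interval -0.51 to 0.16) and POLE2 (-0.11, interval -0.34 to 0.12) no difference between the treatments passed (adjusted p = 0.35, 0.37 and 0.40), which does not show that the effects were equal. With arrays quantile-normalized again, POLA1, POLA2 and POLE were not called (0.23, 0.23 and 0.11) and POLD1, POLD3 and POLE2 were, at -0.34, -0.35 and -0.31 (adjusted p = 0.031, 0.047 and 0.015), whereas centring on ribosomal protein genes turned the differences of POLD1, POLD3 and POLE2 to 0.24, 0.19 and 0.25.

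**Figure D3:**
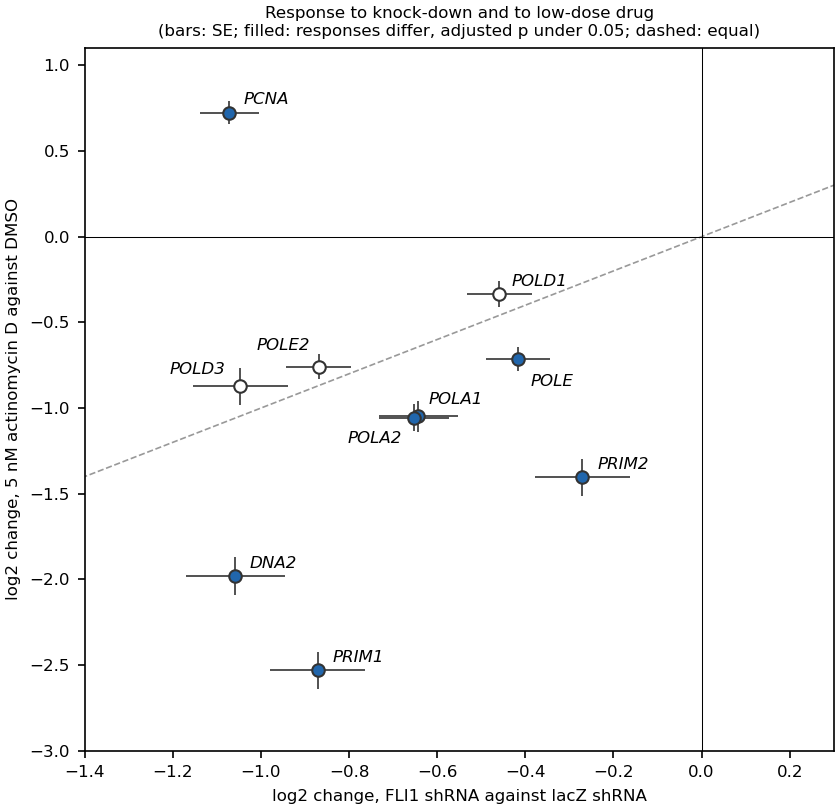
Log2 change of each of the 10 genes at 5 nM actinomycin D against DMSO (vertical axis) and after FLI1 shRNA against lacZ shRNA (horizontal axis); bars are standard errors, the dashed line marks equal changes, and filled points had a difference between the 2 effects with an adjusted p under 0.05. PRIM1, DNA2 and PRIM2 lie far below the line, PCNA far above it, and POLD1, POLD3 and POLE2 close to it.

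Between control groups, 0 to 2 of the 10 genes were called. DMSO against untreated called 0 of the 10 genes and 0.00543% of all genes (1 gene); at an unadjusted p under 0.05, limma counted 1 of the 10, POLE with -0.19, and 1383 genes in all. In lacZ shRNA against untreated cells, 2 of the 10 fell, PRIM2 by 0.47 ± 0.11 (adjusted p = 0.048) and POLD1 by 0.39 ± 0.07 (adjusted p = 0.024), and 0 rose, where 2.26% of all genes fell and 0.815% rose. Both calls were lost without any 1 of the 4 arrays compared (adjusted p = 0.10 to 0.24), and that of PRIM2 also without an array of 50 nM (0.063) or of FLI1 shRNA (0.080). The other 8 genes had changes of -0.34 (PRIM1) to -0.04 (POLA1) that did not pass.

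Actinomycin D moved many genes, and the scale on which arrays are compared therefore bears on these values. The arrays were centred, as an alternative, on 57 cytoplasmic ribosomal protein genes, whose signals were themselves higher with the drug: this shifted the median of all genes by -0.35 at 5 nM, -0.25 at 50 nM and 0.36 in the difference between FLI1 shRNA and 5 nM. The share of called genes that were higher was 17.4% with centring at 5 nM, against 56.9% without it. At 50 nM it was 12.5% with centring, against 52.5%, between doses 59.5%, against 48.3%, and in the difference 84.3%, against 49.0%. On this scale the 10 genes had 9 falls and 1 rise at 5 nM, 10 falls at 50 nM and 9 falls after FLI1 shRNA, where 44.0% of all genes fell and 9.28% rose at 5 nM, 37.8% fell at 50 nM and 8.72% fell after FLI1 shRNA. The comparison of FLI1 shRNA with lacZ shRNA was moved by 0.01.

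Other genes of the fork were taken by function from lists. After FLI1 shRNA, 8 of 9 clamp loaders and unloaders fell (median -0.62), among them RFC3, a subunit of the clamp loader, by 0.93 ± 0.08, DSCC1, of an alternative loader, by 0.81 ± 0.14 and ATAD5, which unloads PCNA, by 0.78 ± 0.10. All counts of lists after FLI1 shRNA stand beside 9.28% of all genes that fell and 14.6% that rose. Of 11 scaffold proteins and cofactors of the replicative helicase, 10 fell (median -0.75), led by CLSPN, a checkpoint mediator at the fork, by 1.33 ± 0.14, MCM10 by 1.16 ± 0.07 and GINS2 by 0.96 ± 0.09. Of 10 factors that bind PCNA, 8 fell and 1 rose: UHRF1, which guides maintenance methylation, fell by 1.31 ± 0.10 and DTL, a ubiquitin ligase adaptor, by 1.11 ± 0.07, CHAF1B, of a histone chaperone that assembles chromatin behind the fork, fell by 0.81 ± 0.07, while CDKN1A, which encodes the inhibitor p21, rose by 0.49. UHRF1, DTL, CLSPN and MCM10 are also in the study's list from these arrays. For single-strand binding and Okazaki fragment maturation the count was 6 of 9 (median -0.37), with FEN1, the main flap nuclease, at -0.60 ± 0.08, RNASEH2B, of the ribonuclease that removes RNA from hybrids, at -0.51 ± 0.10 and RPA2, of the single-strand binding complex, at -0.39 ± 0.07.

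Of 17 translesion, repair and mitochondrial polymerases and partners, 2 fell, 2 rose and 13 did not pass after FLI1 shRNA (median -0.05), shares near the 9.28% and 14.6% of all genes. They included POLQ at -0.67 ± 0.11, TERT at -0.36 ± 0.09 and REV3L, the catalytic subunit of polymerase zeta, at 0.51 ± 0.09. Of the 4 remaining subunits of polymerases delta and epsilon, POLE3 alone fell, by 0.42 ± 0.08. Deoxynucleotide supply was mixed, with 5 falls, 3 rises and 1 gene that did not pass of 9 measured. RRM2, the S-phase subunit of ribonucleotide reductase, fell by 0.79 ± 0.08 and TYMS, thymidylate synthase, fell by 0.66 ± 0.09. RRM2B, the stress-induced paralogue of RRM2, rose by 0.70 ± 0.18.

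At 5 nM the remaining subunits of delta and epsilon went the other way from the 4 delta and epsilon genes described above. POLE4, a histone-fold partner of POLE3, read 9.46 and 9.42 at 5 nM, against 8.52 and 8.51 in DMSO, and rose by 0.93 ± 0.08 (adjusted p = 3.8e-06). POLE3 rose by 0.81 ± 0.08 and POLD2, the B subunit of delta, by 0.44 ± 0.07, so that 3 of 4 rose with a median of 0.62; with arrays centred on ribosomal protein genes POLE4 (0.58) and POLE3 (0.46) still rose, POLD2 (0.09) did not pass and POLD4 fell. On both scales polymerase epsilon thus had 2 subunits that fell and 2 that rose at the low dose, while for delta the rise of POLD2 beside the falls of POLD1 and POLD3 depended on the scale. At 50 nM all 4 rose, from 0.29 for POLD2 to 0.57 for POLE4, of which 2 did so with centring. Of all genes 30.3% rose at 5 nM and 25.8% at 50 nM, and with centring 9.28% and 5.41%.

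The counts of the remaining lists stand beside 23.0% of all genes that fell and 30.3% that rose at 5 nM, and several lie near those shares. Counts with ribosomal centring at 5 nM stand beside 44.0% of all genes that fell and 9.28% that rose. The clamp loader genes had 5 falls and 0 rises among 9 at 5 nM (median -0.26), with ATAD5 at -1.83 ± 0.10, RFC1 at -1.24 ± 0.08 and DSCC1 at -0.48 ± 0.14. Helicase cofactors had 7 falls and 2 rises of 11, and GINS subunits took opposite directions: GINS3 rose by 1.38 ± 0.09, reading 10.79 and 10.71 at 5 nM against 9.40 and 9.34 in DMSO, while GINS1 fell by 1.29 ± 0.08 and WDHD1, which couples polymerase alpha to the helicase, by 1.31 ± 0.09. Among PCNA-binding factors 6 fell and 2 rose, with DTL at -1.01 ± 0.07, CHAF1A at -0.99 ± 0.07 and CDKN1A at 1.18 ± 0.06. With ribosomal centring the clamp loaders had 7 falls and 0 rises, the helicase cofactors 9 and 1 and the PCNA-binding factors 8 and 2. Repeated quantile normalization gave the clamp loaders 5 falls and 3 rises, with no share of all genes by direction computed on that scale. For Okazaki fragment maturation 3 fell and 4 rose, with RNASEH2C at 0.65 ± 0.09, FEN1 at 0.54 ± 0.08 and RNASEH1 at 0.47 ± 0.08; with ribosomal centring the list had 4 falls and 2 rises, with RNASEH2C at 0.30, FEN1 at 0.19 and RNASEH1 at 0.12, which did not pass. Deoxynucleotide supply had 0 falls and 1 rise of 9, DUT by 0.58 ± 0.08, while DTYMK (-0.17 ± 0.08) and SAMHD1 (0.15 ± 0.13) did not pass; with centring it had 5 falls and 1 rise. Of the 17 other polymerases and partners 6 fell and 4 rose, with REV1 at -1.50 ± 0.12, REV3L at -1.39 ± 0.09 and TWNK, the mitochondrial helicase, at 1.54 ± 0.09; centring gave 10 falls and 2 rises. At 50 nM, where 23.3% of all genes fell and 25.8% rose, the counts of falls and rises were 5 and 1 for clamp loaders, 7 and 2 for helicase cofactors, 7 and 2 for PCNA-binding factors, 2 and 4 for Okazaki fragment maturation, 0 and 2 for deoxynucleotide supply and 9 and 2 for the other polymerases. With centring they were 8 and 0, 8 and 1, 8 and 0, 2 and 2, 1 and 1, and 12 and 1, in the same order, where 37.8% of all genes fell and 5.41% rose.

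**Figure D4:**
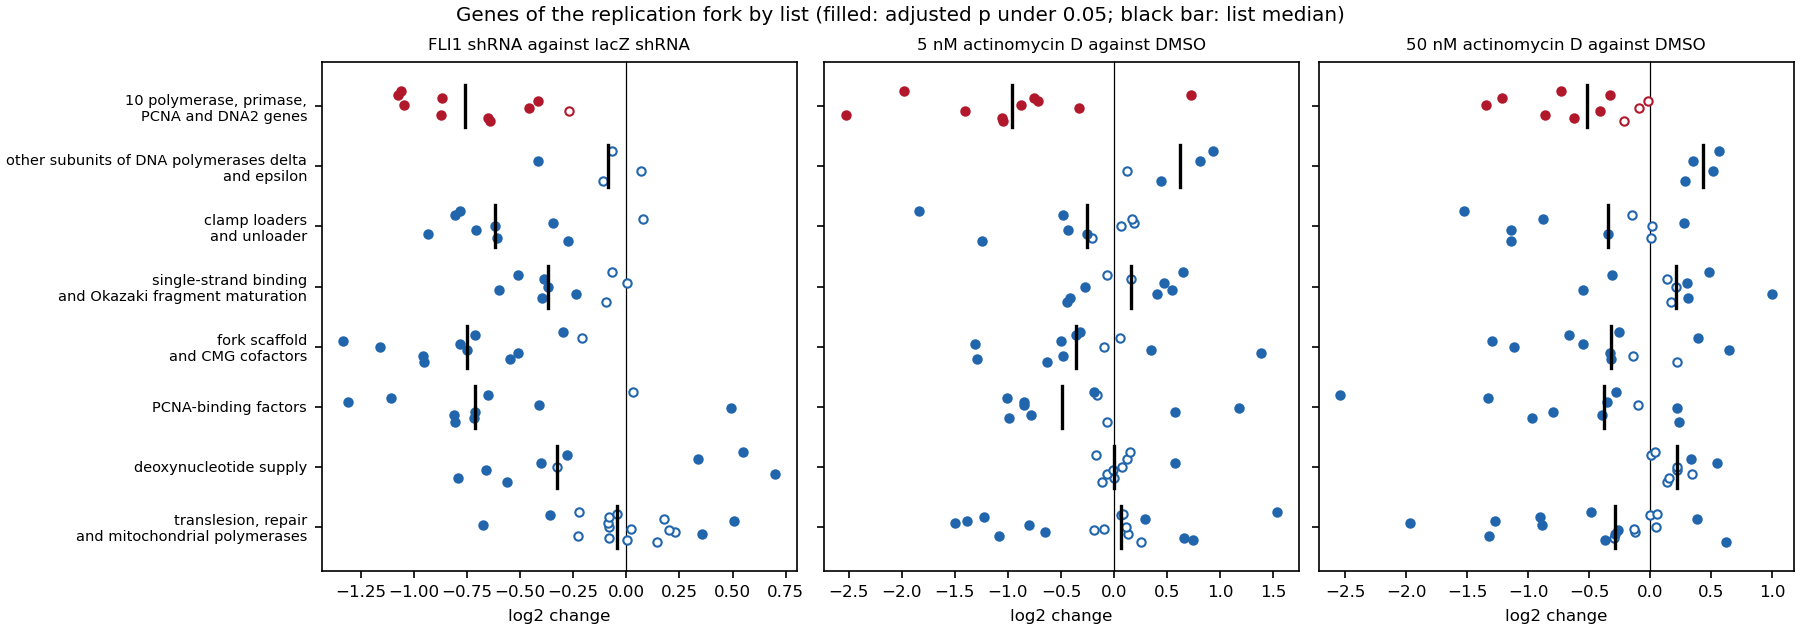
Log2 change (horizontal axis, each panel with its own range) of the 10 genes (red, top row) and of other replication genes by list (blue) after FLI1 shRNA against lacZ shRNA and at 5 nM and 50 nM actinomycin D against DMSO. Filled points passed an adjusted p of 0.05 and black bars are medians; the remaining subunits of delta and epsilon have a median of 0.62 at 5 nM, where the 10 genes have -0.96.

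Markers of other cell types moved too. The summed signal of the endothelial markers was 8.42 on both FLI1 shRNA arrays, against 7.90 to 8.07 with lacZ shRNA, where KDR rose by 1.85 and PECAM1 fell by 0.55; of the epithelial markers KRT19 fell by 0.37, and 0 of 5 blood markers were called. The summed epithelial signal was 11.68 to 11.73 in DMSO, 11.84 to 12.07 at 5 nM and 11.85 to 12 at 50 nM. That of blood markers was 7.61 to 7.82 in DMSO, 7.96 to 8.13 at 5 nM and 7.94 to 8.03 at 50 nM, and that of endothelial markers 7.82 to 7.94, 8.07 to 8.13 and 8.08 to 8.12. At 5 nM 1 of 7 epithelial markers rose (KRT8, 0.52), 2 of 5 blood markers (CD3E, 0.58, and CD14, 0.55) and 2 of 5 endothelial ones (KDR, 0.45, and CDH5, 0.36), and 0 fell. Of all genes 30.3% rose and 23.0% fell at 5 nM, so that these rises are no more than a description. At 50 nM 1 of 7, 3 of 5 and 2 of 5 rose and 0 fell, where 25.8% of all genes rose and 23.3% fell. With ribosomal centring 0 rose at 5 nM and 1 of each list fell, where 9.28% of all genes rose and 44.0% fell. The lowest of the defining markers were PTPRC of blood cells, 3.49 to 3.82 over the 12 arrays, and, among epithelial markers, CDH1, 4.65 to 5.42, and EPCAM, 4.62 to 5.64; TEK of endothelium read 4.71 to 5.14. The part of other cell types in the changes of the 10 genes was not tested.

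Over the 12 arrays, POLD3 and POLE2 were each other's closest match among all genes tested, with a Pearson r of 0.995. The arrays fall into 6 groups, so that such an r mainly follows the group means and is given as a description. The closest match of PRIM1 was CENPP, a centromere protein gene (0.992), and that of DNA2 was WDHD1 (0.988). PCNA was closest to CHEK1, a checkpoint kinase gene (0.993), and its r with the other 9 genes ran from -0.32 with PRIM2 to 0.48 with POLD1. The remaining matches were CTPS1 for POLA1 (0.990), FAM13C for POLA2 (0.986), TAFA5 for POLE (0.983), ANTXR1 for PRIM2 (0.982) and POLR3K for POLD1 (0.976). Among the 4 genes of the alpha-primase complex r lay between 0.90 and 0.97, and DNA2 correlated with each of them at 0.93 to 0.98.

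Gene span is a property along which changes with this drug varied across all genes: at 5 nM Spearman's rho of change with span was -0.52 over 16895 genes, and -0.71 over the 7448 with a mean level above 8. At 50 nM it was -0.29 over the 16895 genes and after FLI1 shRNA 0.13. Among the 10 genes rho was -0.26 at 5 nM, 0.02 at 50 nM and 0.50 after FLI1 shRNA. PRIM2 and POLA1 are the longest, 425 kb on chromosome 6 and 303 kb on chromosome X in GRCh38.p14, and PCNA, the one that rose, is the shortest, 11.7 kb on chromosome 20. PRIM1, which fell most, is the next shortest at 20.7 kb on chromosome 12.

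Since 9 of the 10 genes fell after FLI1 shRNA, their upstream sequence was searched for the letters that E2F factors and ETS factors are known to bind. RefSeq windows of 250 bases before the annotated start (GRCh38.p14) matched 8 of the 10 genes by symbol, with 11 windows. The E2F-type letters TTTGGCG or TTTCCCG, on either strand, occurred in 5 of the 8, POLA1, POLA2, POLE, POLE2 and PCNA, and in 5.14% of all 35116 windows. The matches are printed 5′ to 3′ on the strand of the gene with the match or its reverse complement in capitals, to show the element on each gene:
POLA1 (chrX:24693770-24693800, + strand): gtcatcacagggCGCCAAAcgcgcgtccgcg
POLA2 (chr11:65261926-65261956, + strand): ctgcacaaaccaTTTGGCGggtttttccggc
POLE (chr12:132687343-132687371, - strand): tgggtgggagcgCGCCAAAtttctcccct
POLE2 (chr14:49688402-49688432, - strand): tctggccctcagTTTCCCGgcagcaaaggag
PCNA (chr20:5126662-5126692, - strand): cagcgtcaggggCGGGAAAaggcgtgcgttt

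In POLA1 the match lay 136 to 130 bases before the start, in POLA2 24 to 18, in POLE 17 to 11, in POLE2 206 to 200 and in PCNA 58 to 52. TTTGGCG was the rarer form, in 1.59% of all windows, and TTTCCCG was in 3.66%. The ETS core CCGGAA, on either strand, occurred in 5 of the 8 genes, POLA1, POLA2, PRIM2, POLE and PCNA, and in 14.5% of all windows; it shares no letters with the printed E2F-type matches. CCAAT, on either strand, was in 4 of the 8, POLA1, PRIM1, POLE and PCNA, and in 32.0% of all windows. A gene with several windows had more than 1 chance of a match. PRIM1, PRIM2 and POLD1 had no E2F-type match in these letters and windows. Other forms of the E2F element were not searched, so that a missing match does not show that a gene lacks one.

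PRIM1 and PCNA, which moved furthest apart at 5 nM, are printed over the whole 250 bases before the start, with any E2F-type match in capitals:
PRIM1 (chr12:56752324-56752573, - strand): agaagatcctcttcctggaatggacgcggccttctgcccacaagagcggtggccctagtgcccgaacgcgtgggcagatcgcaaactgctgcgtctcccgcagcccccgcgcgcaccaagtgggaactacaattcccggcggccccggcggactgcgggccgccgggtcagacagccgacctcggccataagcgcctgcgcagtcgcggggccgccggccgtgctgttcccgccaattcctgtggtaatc
PCNA (chr20:5126623-5126872, - strand): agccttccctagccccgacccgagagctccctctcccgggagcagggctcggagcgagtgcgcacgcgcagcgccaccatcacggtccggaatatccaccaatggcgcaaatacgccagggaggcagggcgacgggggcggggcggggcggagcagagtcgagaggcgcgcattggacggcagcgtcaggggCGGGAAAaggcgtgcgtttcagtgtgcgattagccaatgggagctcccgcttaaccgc

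The share of G and C was 68.4% in both, within the 39.6% to 75.2% of the 11 windows. PRIM1 had 1 CCAAT match, 18 to 14 bases before the start, and PCNA had 3 in this window. No measurement here reports binding of a factor or of the drug at these sites.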

How the data were processed

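RNA of A673 cells (12 arrays, 2 in each of 6 groups named by the labels) was measured on Affymetrix Gene ST arrays. The deposited log2 values had been background-corrected and RMA-normalized by the authors with affy (version not given in the sources used here) and were used as deposited; 0 value columns lacked a sample. Of 32321 rows, 19158 had a single gene symbol, 1388 several and 11775 none; the brightest probe set stood for each of 18404 genes. Group means were fitted over all 12 arrays with limma 3.58.1 in R 4.3.3 (6 residual and 4.45 prior degrees of freedom), with Benjamini-Hochberg adjustment over all genes of a comparison. With 2 arrays against 2 an exact permutation test cannot go below a two-sided p of 0.333, and the number of arrays limits the precision. The fit was tested on simulated data. All 10 genes are named, with the gene most correlated with each; from other lists, up to 3 genes with the largest change after FLI1 shRNA and at 5 nM. PTPRC, TEK, KRT18 and KRT14 were named after their values were seen. The genes and lists were chosen with earlier results of these data known. Alternatives were a replicate block, a fit of the compared groups only, dim genes (below the 40th percentile) left out, the mean over probe sets, all rows, repeated quantile normalization, ribosomal centring, trended robust eBayes, a 2-fold rule and each array left out.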

Additional observations from a re-analysis of the deposited data

How the results depend on the processing

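With 2 arrays per group a change near the threshold rests on single arrays. In the comparisons of treatments 5 of the genes' changes turned sign under an alternative, POLE at 50 nM under 3 of them; between control groups, changes that had not passed turned sign for POLA1 with lacZ shRNA (-0.04, and 0.02 after quantile normalization) and for POLD3 in DMSO (0.03, and -0.01 with ribosomal centring), and were not followed under other alternatives. At 50 nM actinomycin D, POLD1 was 0.16 and POLE 0.095 above DMSO after repeated quantile normalization, and POLE between 0.052 above it (without DMSO replicate 1) and 0.091 below it (a change of -0.091, without DMSO replicate 2), with 0.015 above it without 50 nM replicate 2; none of these passed. In the difference between FLI1 shRNA and 5 nM, ribosomal centring gave POLD1 0.24, POLD3 0.19 and POLE2 0.25, the last with an adjusted p of 0.041, since centring shifts that difference for all genes. Leaving out 1 array at a time, 9 to 10 of the 10 genes were called after FLI1 shRNA, 10 to 10 at 5 nM, 6 to 8 at 50 nM, 9 to 10 between doses, 0 to 0 for DMSO against untreated, 0 to 2 for lacZ shRNA against untreated and 4 to 7 in the difference, where 4 was the count without FLI1 shRNA replicate 2. The rule of 2-fold and an adjusted p under 0.01, which is stricter by construction, called 3 genes after FLI1 shRNA, 5 at 5 nM, 2 at 50 nM, 3 between doses, 0 for lacZ shRNA against untreated and 3 in the difference. The share of all genes that met this rule in the difference was not computed, so that the count there has no background beside it. For lacZ shRNA against untreated, where 2 genes were called, 0 were called by the fit of 4 arrays and with all rows tested, 1 after repeated quantile normalization and 3 with trended, robust eBayes. The replicate block called 1 there and changed no other count of the 10 genes. The correlation of replicate differences ran from -0.45 (lacZ shRNA and untreated) to 0.34 (lacZ shRNA and 5 nM) over 15 pairs of groups, 6 of them over 0.1. These mixed signs do not settle whether arrays of different groups shared a batch. A batch numbered differently between groups would not be taken out by the block. The cause of these changes was not tested. No raw scans were analysed here, so that signal over background is not known for these values.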
